A study of Mus musculus with 4 samples.

Results

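This account covers 10 genes that mark macrophages and white blood cells in the mouse embryo, read out in hindlimb bud cells at embryonic day 11.5. The genes were chosen by symbol as markers of embryonic macrophages (Csf1r, Cx3cr1, Mrc1, Adgre1, C1qa, C1qb, Aif1), of myeloid adaptor proteins (Tyrobp, Fcer1g) and of all leukocytes (Ptprc), and all 10 are among the 25239 gene symbols of the deposited count table. The cells came from FVB mice whose genotype label is wild-type apart from an mCherry reporter placed at the H11 site. The reporter is driven by the hsp68 promoter under a human ZRS (limb enhancer of Shh) that carries 404G>A. Every group carried this reporter. After dissection and fluorescent sorting, mCherry+ cells of the anterior limb bud (2 libraries) were set against mCherry- cells of its centre (2 libraries). Position and mCherry state changed together, so their parts in a difference cannot be told apart. Below, anterior cells are the mCherry+ anterior cells and central cells the mCherry- central cells. The sort used mCherry, and the labels name no selection for or against blood cells. The labels do not say whether embryos were pooled or whether the 2 libraries of a group came from separate litters, so p-values measure the spread between these libraries, which may be technical.

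Library totals lay between 30080925 and 33257383 counts, and 14610 genes had enough counts to be tested. The genes described here are rare transcripts in these libraries: together they took 1084 and 905 anterior counts against 296 and 296 central counts. The tissue label held for general limb mesenchyme markers, with Prrx1 at 696 and 661 CPM and Pitx1 at 442 and 456 CPM in anterior and central cells (group means of TMM-scaled counts per 1 M, CPM). The list of such markers was not level between the groups. Of its 8 genes, all tested, 4 were called higher in anterior cells and 1 lower (edgeR, adjusted p under 0.05), with a median log2 fold change of 0.45.

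Macrophages of the early embryo arise mainly from the yolk sac and enter the limb bud with the circulation, where they clear dying cells. They survive and divide on signals through the receptor Csf1r and sense targets through immunoreceptors, some of which signal only through the adaptors Tyrobp and Fcer1g. Resident macrophages also make the C1q proteins, which tag dying cells for uptake. Ptprc encodes CD45, a tyrosine phosphatase on the surface of white blood cells.

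The markers did not move as a block. Csf1r, Cx3cr1, Mrc1, Adgre1, C1qa and C1qb were higher in anterior cells, by 2.31-fold for Cx3cr1 to 15.8-fold for C1qa (edgeR quasi-likelihood test, Benjamini-Hochberg adjusted p under 0.05). Ptprc, Tyrobp and Fcer1g did not pass the test, and Aif1 had too few counts to enter it. Of the 14610 genes tested, 22.9% were called in either direction and 10.7% were called higher in anterior cells. Of the 9 members tested, 6 were called higher and 0 lower, and 0 were lower at an unadjusted p under 0.05. Adgre1 and C1qa entered the test through their anterior counts, so that their difference is partly set by the filter. Of the 7 members that reached the filter level in both central libraries, 4 were called higher. In a bulk population, fewer cells of a type and less RNA per cell cannot be told apart.

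**Figure D1:**
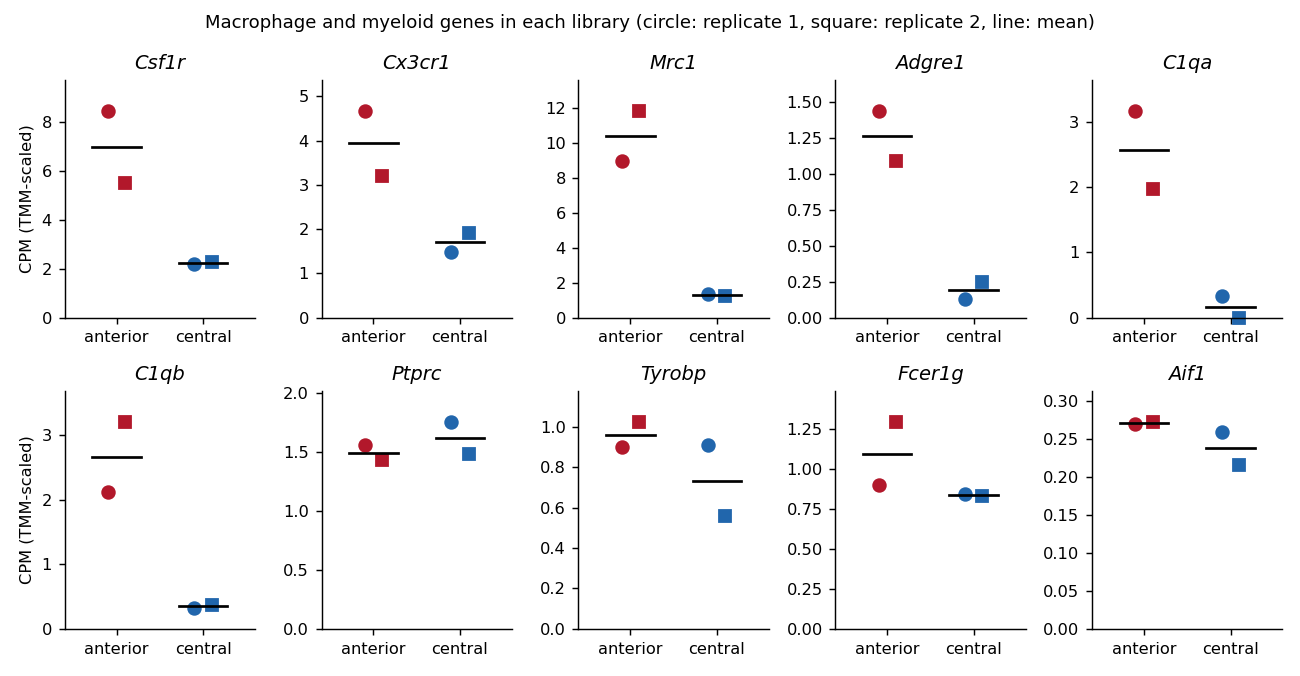
TMM-scaled CPM (vertical axis, linear, from 0) of each gene in the 2 anterior (red) and 2 central (blue) libraries, with circles for replicate 1, squares for replicate 2 and black lines for group means. In the panels from Csf1r to C1qb both anterior points lie above both central points, whereas Ptprc and Tyrobp overlap between the groups.

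The C1q genes were higher in anterior cells. C1qa and C1qb encode chains of the recognition protein of the classical complement pathway, and C1qc, which is not among the 10 markers, encodes the remaining chain. The genes lie side by side on the minus strand of chromosome 4 (GRCm38, GENCODE M21): C1qb at chr4:136880129-136886187, C1qc at chr4:136889804-136893065 and C1qa at chr4:136895917-136898803. The gap between C1qb and C1qc is 3616 bases and that between C1qc and C1qa is 2851 bases.

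C1qa had 106 and 58 anterior counts against 10 and 0 central counts. Both anterior libraries were far above the central ones, and central replicate 2 had no count, which allows a level of up to 0.0926 CPM (3 counts). The means were 2.58 ± 0.85 CPM in anterior and 0.16 ± 0.23 CPM in central cells (SD, n = 2 each), with a log2 fold change of 3.98 ± 0.88 (SE) at an adjusted p-value (edgeR) of 0.0124. This call depended on the test: by the DESeq2 Wald test C1qa had an adjusted p of 0.175, and all settings spanned 4.46e-05 to 0.175. The size of the change rested on central replicates: the log2 fold change was 2.98 without central replicate 2, and the fit without central replicate 1 gave 9.36, which is no bound because the remaining central library was at 0.

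C1qb had 71 and 94 anterior counts against 10 and 12 central counts. The anterior values were well above the central ones, and the order of the anterior replicates was opposite to that of C1qa. The log2 fold change was 2.92 ± 0.48 (SE), at an adjusted p-value (edgeR) of 0.00294. C1qc had 90 and 54 counts against 6 and 10, and its log2 fold change of 3.15 ± 0.53 (SE; adjusted p by edgeR 0.00331) was close to that of C1qb. C1qc, like C1qa, entered the test through its anterior counts, with both central levels below the filter, so its difference is partly set by the filter as well. Summed over the C1q genes, the level was 8.0 and 7.02 CPM in anterior and 0.84 and 0.68 CPM in central libraries, a ratio of means of 9.86. The receptor kinase gene Ephb2, the nearest listed gene beyond C1qb at 44140 bases, was also called higher in anterior cells, by 0.59 on the log2 scale (adjusted p by edgeR 0.000446).

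Promoter sequence is shown for called and uncalled members, to let their upstream windows be compared. Whether the changes of called and uncalled members differed from each other was not tested. The windows are the 250 bases before the annotated start, from RefSeq on GRCm38.p6, written 5′ to 3′ on the gene's strand. Such a window was found for 6 of the 10 members and for C1qc. Capitals mark AGGAAGT or its reverse complement ACTTCCT, a purine-rich box of the kind bound by ETS factors such as PU.1 (encoded by Spi1), the leading transcription factor of the macrophage lineage. The motif was chosen with these sequences in view, both strands were searched, and 7.69% of 32851 promoter windows of this length hold a match. Of the 6 members with a window, 3 held one. C1qb (chr4:136886201-136886450, minus strand), C1qc (chr4:136892915-136893164, minus strand) and Mrc1 (chr2:14229164-14229413, plus strand) were higher in anterior cells, and Ptprc (chr1:138175306-138175555, minus strand) and Fcer1g (chr1:171234350-171234599, minus strand) were not called.
C1qb: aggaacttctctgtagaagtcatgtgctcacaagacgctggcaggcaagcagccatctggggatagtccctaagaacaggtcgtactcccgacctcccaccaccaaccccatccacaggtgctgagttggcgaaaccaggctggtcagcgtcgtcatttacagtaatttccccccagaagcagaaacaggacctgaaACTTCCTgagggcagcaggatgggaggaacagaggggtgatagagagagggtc
C1qc: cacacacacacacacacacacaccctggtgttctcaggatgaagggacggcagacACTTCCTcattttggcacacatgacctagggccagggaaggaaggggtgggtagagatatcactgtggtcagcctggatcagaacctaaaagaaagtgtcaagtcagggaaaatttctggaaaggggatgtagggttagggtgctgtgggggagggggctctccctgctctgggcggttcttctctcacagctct
Mrc1: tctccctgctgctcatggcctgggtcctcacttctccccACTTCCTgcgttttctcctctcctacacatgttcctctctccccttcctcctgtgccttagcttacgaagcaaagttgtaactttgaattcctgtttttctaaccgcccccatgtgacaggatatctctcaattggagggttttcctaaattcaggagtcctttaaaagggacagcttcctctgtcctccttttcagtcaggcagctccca
Ptprc: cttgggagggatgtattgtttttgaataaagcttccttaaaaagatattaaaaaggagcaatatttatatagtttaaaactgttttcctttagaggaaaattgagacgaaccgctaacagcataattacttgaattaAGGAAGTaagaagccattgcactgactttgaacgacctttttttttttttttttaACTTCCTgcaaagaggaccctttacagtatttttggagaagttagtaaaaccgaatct
Fcer1g: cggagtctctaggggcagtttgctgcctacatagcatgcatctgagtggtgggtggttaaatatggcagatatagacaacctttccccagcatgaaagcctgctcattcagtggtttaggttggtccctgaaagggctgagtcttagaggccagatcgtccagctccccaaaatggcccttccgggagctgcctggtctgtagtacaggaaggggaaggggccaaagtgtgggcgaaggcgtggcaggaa
The match began 53 bases before the start in C1qb, 195 in C1qc and 211 in Mrc1. Ptprc, a gene that was not called, held matches at 113 and 58 bases in this window. No match was found in the windows of Fcer1g, Cx3cr1 and Aif1, which says only that these letters are not in them. Matches thus occurred in called and uncalled members alike. Spi1 itself had 38 and 48 anterior counts against 36 and 32 central counts and was not called (log2 fold change 0.36, 95% interval -0.66 to 1.38, adjusted p by edgeR 0.619).

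Mrc1 had the smallest p-value of the markers. It encodes the mannose receptor CD206, which takes up sugar-bearing ligands, and lies at chr2:14229392-14332057 on the plus strand. It had 300 and 348 anterior counts against 42 and 40 central counts. The groups were far apart and the replicates close, with means of 10.4 ± 2.0 and 1.30 ± 0.09 CPM (SD, n = 2). The log2 fold change was 3.0 ± 0.26 (SE; adjusted p by edgeR 9.56e-05) and ranged from 2.79 to 3.19 over the 15 settings, in all of which it was called.

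Mrc1 is also made by lymphatic and sinusoidal endothelium, as are Lyve1 and Stab1. Lyve1, a hyaluronan receptor, had 16 and 14 anterior counts against 0 and 0 central counts, at least 5.03-fold higher in anterior cells against a floor of 3 counts per library (adjusted p by edgeR 0.0137). Stab1, a scavenger receptor, had 414 and 379 counts against 103 and 224 and a log2 fold change of 1.30 (adjusted p by edgeR 0.0151). Lyve1 and Stab1 are known from both endothelium and macrophages, and both were called higher, as Mrc1 was. Which cells made them here was not tested. In the lymphatic and sinusoidal endothelial list, which includes Mrc1, 3 of 6 tested genes were called higher. With halved counts or a mean count of at least 50, it was 2 of 5, and Mrc1 kept its call in both. At least 1 of Lyve1 and Stab1 lost its call whenever any library was left out, whereas Mrc1 kept its call in each such fit. Other genes of this endothelial list went differently: Flt4, a lymphatic growth factor receptor, and Pdpn, a membrane glycoprotein, were lower in anterior cells, by -1.87 and -0.81 on the log2 scale (adjusted p by edgeR 0.0172 and 0.0149). Without either anterior library or without central replicate 2, 1 gene of this list was called lower. Prox1, the lymphatic transcription factor, was not called at 1.89 and 2.43 CPM (adjusted p by edgeR 0.550), and Stab2 had 3 to 8 counts in any library. Summed over the 7 genes, Mrc1 included, the list stood at 33.3 to 34.4 CPM in anterior and 22 to 27.6 CPM in central libraries. Mrc1 itself gave 8.99 and 11.9 CPM of the anterior sums and 1.36 and 1.24 CPM of the central ones. The part of this endothelium in the Mrc1 value was not tested.

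Adgre1 encodes F4/80, the surface antigen by which mouse macrophages are usually sorted, and lies at chr17:57358691-57483527 on the plus strand. It had 48 and 32 anterior counts against 4 and 8 central counts, so the groups did not overlap. The means were 1.26 ± 0.25 and 0.19 ± 0.08 CPM (SD, n = 2), and the log2 fold change was 2.72 ± 0.62 (SE; adjusted p by edgeR 0.0145). The call was lost without anterior replicate 1 (adjusted p-value 0.0886) and without central replicate 1 (0.0668), in a range of 0.00491 to 0.0886 over all settings.

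Csf1r, the receptor for colony-stimulating factor 1 and interleukin 34, lies at chr18:61100598-61132149 on the plus strand. It had 282 and 161 anterior counts against 68 and 74 central counts. The anterior replicates differed more from each other than the central ones did, yet both were above the central values. The means were 6.97 ± 2.10 and 2.25 ± 0.06 CPM (SD, n = 2), and Csf1r was called in all 15 settings with log2 fold changes of 1.29 to 1.92. In GENCODE M21, 873 exonic bases of Csf1r overlap Hmgxb3 on the other strand, and whether the counting used strand is not given in the sources used here. Hmgxb3 had 2841 and 2573 counts against 2342 and 2561 and was not called (adjusted p by edgeR 0.163). Pdgfrb, the nearest gene at lower coordinates, 15536 bases away, was not called either (adjusted p by edgeR 0.271).

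The ligand gene Csf1 was higher in the same cells. Csf1 had 450 and 370 anterior counts against 212 and 168 central counts, a log2 fold change of 1.11 ± 0.20 (SE; adjusted p by edgeR 0.00441). Both anterior libraries were above both central ones. Il34, which encodes the other ligand, had 1 to 4 counts in any library and was not tested. Of the 9 other genes in the list of colony-stimulating factors and their receptors, 5 were tested, 1 was called higher (Csf1) and 1 lower (Flt3, the receptor of early blood progenitors, with 4 and 0 counts against 20 and 20). Flt3 had a log2 fold change of -3.25 (adjusted p by edgeR 0.0438). By the DESeq2 Wald test, with halved counts or without anterior replicate 2, 0 genes of this list were called lower, so the Flt3 call was lost there, and without anterior replicate 1, 2 were.

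Cx3cr1 encodes the receptor for fractalkine and marks tissue macrophages and their precursors. It had 156 and 94 anterior counts against 46 and 62 central counts. The groups did not overlap, but the distance between them was the smallest of the called markers, with a log2 fold change of 1.21 ± 0.34 (SE; adjusted p by edgeR 0.0347). The call was lost without anterior replicate 1 (log2 fold change 0.91, adjusted p-value 0.211) and without central replicate 1 (1.04, 0.0841), in a range of 0.01 to 0.211 over all settings. The annotated span of Cx3cr1, chr9:119901616-120069879 on the minus strand, covers several other genes, among them Wdr48 and Gorasp1, with which it shares no exonic base. It does share 78 exonic bases with the antisense gene Gm33858 on the other strand, for which there was no count value. Cx3cl1, the gene of the ligand fractalkine, had 311 and 252 anterior counts against 98 and 62 central counts and was called higher, by 1.81 ± 0.28 on the log2 scale (SE; adjusted p by edgeR 0.00233). The ligand genes Csf1 and Cx3cl1 and the receptor genes Csf1r and Cx3cr1 were thus all called higher in anterior cells.

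**Figure D2:**
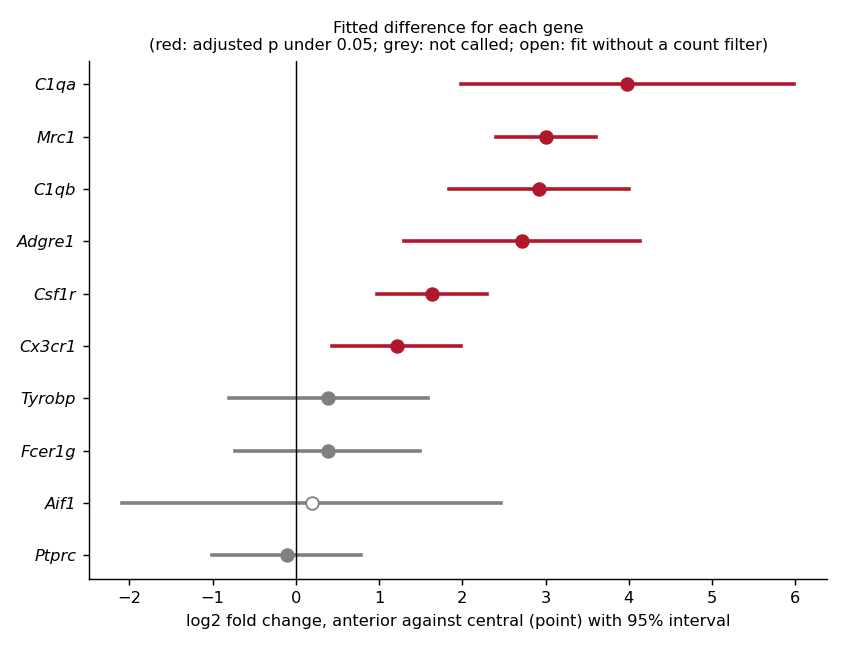
Fitted log2 fold change of anterior against central cells (horizontal axis) for each gene, with its 95% interval as a line. Red points were called at an adjusted p under 0.05, grey points were not, and the open point of Aif1 comes from a fit without a count filter. The interval of C1qb runs from 1.84 to 4.0 and that of Ptprc from -1.01 to 0.79.

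The pan-leukocyte gene Ptprc differed little between the groups. It lies at chr1:138062861-138175708 on the minus strand and had 52 and 42 anterior counts against 54 and 48 central counts. The groups overlapped, with a log2 fold change of -0.11 ± 0.39 (SE) at an adjusted p-value (edgeR) of 0.871. The 95% interval of -1.01 to 0.79 excludes a rise of 2-fold or more in anterior cells, and it does not show that the levels were equal. Relative to Ptprc, Mrc1 had 5.77 and 8.29 counts per Ptprc count in anterior and 0.78 and 0.83 in central libraries. The make-up of the marker counts was therefore different: Ptprc gave 4.80% and 4.64% of the summed counts of the 10 markers in anterior cells and 18.2% and 16.2% in central cells.

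Tyrobp (DAP12) and Fcer1g (the Fc receptor gamma chain) encode small adaptors that carry an activation motif for the kinase Syk. Tyrobp, at chr7:30413760-30417585 on the plus strand, had 30 and 30 anterior counts against 28 and 18 central counts. The groups overlapped once scaled for depth, with a log2 fold change of 0.39, a 95% interval of -0.81 to 1.59 at an adjusted p-value (edgeR) of 0.648. Fcer1g, at chr1:171229572-171234365 on the minus strand, had 30 and 38 counts against 26 and 27. Both anterior libraries were slightly above both central ones, but the difference was within the error of the fit (log2 fold change 0.38, 95% interval -0.73 to 1.49, adjusted p by edgeR 0.628). These intervals still allow a rise of 2-fold in either gene.

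Aif1 encodes Iba1, a calcium-binding protein of the macrophage cytoskeleton, and lies at chr17:35170991-35176068 on the minus strand. It had 9 and 8 anterior counts against 8 and 7 central counts. These values were below the filter level of 0.320 CPM in all 4 libraries, so the gene was not tested. A fit without the filter gave a log2 fold change of 0.19 with a 95% interval of -2.08 to 2.47, and a difference was not detectable at this depth. Counting Aif1, both anterior libraries were above both central ones for 8 of the 10 markers, and for 7 of the 9 tested. That order held for 30.8% of all tested genes.

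Compared per length of exon, the order of the markers differed between the populations. In central cells Tyrobp and Fcer1g had the highest levels, with means of 1.30 and 1.12 CPM per kb, and their values overlapped each other. Csf1r followed at 0.46 CPM per kb, below both central values of Fcer1g. C1qa and Adgre1 were lowest at 0.16 and 0.06 CPM per kb. In anterior cells C1qa and C1qb came first at 2.48 and 2.45 CPM per kb, followed by Mrc1 at 1.94, Tyrobp at 1.70, Fcer1g at 1.47 and Csf1r at 1.43 CPM per kb. Each of these overlapped its neighbour in the order, so their ranks are not separated by the replicates. Cx3cr1 at 0.87, Adgre1 at 0.39, Ptprc at 0.29 and Aif1 at 0.27 CPM per kb lay lower and did not overlap their neighbours.

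**Figure D3:**
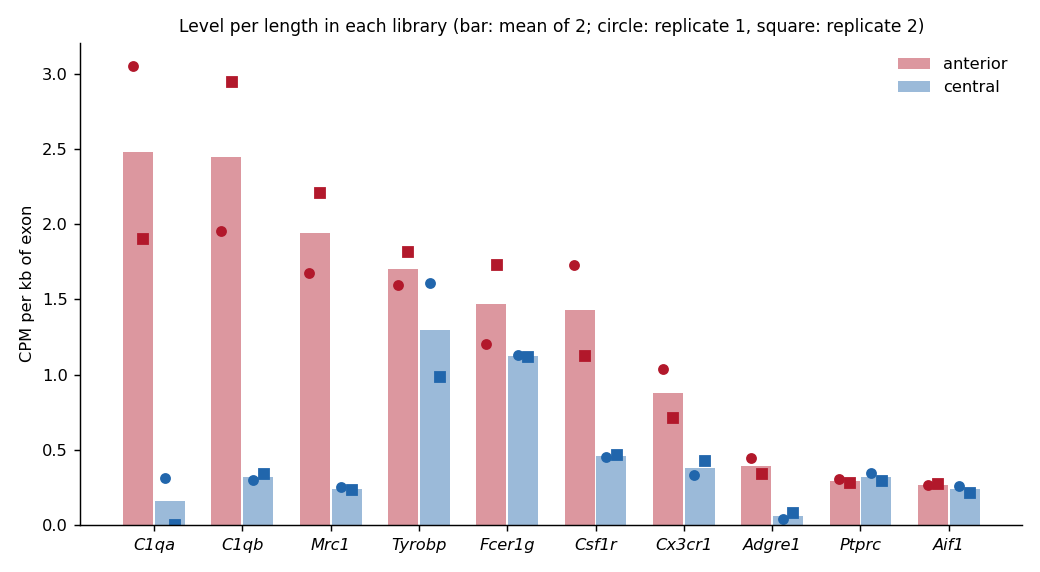
Level per kb of exon (vertical axis, CPM per kb, from 0) of each gene in anterior (red) and central (blue) cells; bars are means of 2 libraries, circles replicate 1 and squares replicate 2. C1qa and C1qb are tallest in anterior cells at 2.48 and 2.45, whereas Tyrobp and Fcer1g are tallest in central cells at 1.30 and 1.12.

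Other macrophage genes were mixed. Of 20 listed, 13 were tested, 4 were called higher (C1qc, Lyve1, F13a1, Sall1) and 1 lower, and the median log2 fold change was 0.88, against -0.01 over all tested genes. Without anterior replicate 2, 0 were called lower. Among the genes named here and in the lists that follow, Lyve1, C5ar1, Cd36 and Gfi1b reached the filter through anterior libraries alone, and Flt3, Cpa3, Hlf, Cldn5 and Sox17 through central libraries alone. F13a1, a transglutaminase gene of resident macrophages, had 149 and 130 counts against 28 and 33 (log2 fold change 2.20 ± 0.32 SE, adjusted p by edgeR 0.00181). Sall1, at 363 and 246 CPM in anterior and central cells, is also a transcription factor of the limb mesenchyme. The lysosomal marker Cd68 had 444 and 278 counts against 272 and 323 and was not called (adjusted p by edgeR 0.374). The lysozyme gene Lyz2 had 96 and 58 counts against 50 and 45 and was not called either (log2 fold change 0.69, 95% interval -0.17 to 1.55, adjusted p by edgeR 0.236). Trem2, a receptor that signals through Tyrobp, had 21 and 8 counts against 2 and 2 and did not pass the filter.

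Most other pan-leukocyte genes, like Ptprc, were not called, which also holds for most tested genes. Over all tested genes, 10.7% were called higher and 12.3% lower. Of 15 listed, 13 were tested, 1 was called higher and 0 lower by edgeR (1 lower at an unadjusted p under 0.05, and 0 by DESeq2 and limma-voom), with a median log2 fold change of -0.02. Without anterior replicate 1, or without either central library, 2 were called higher. Laptm5, a lysosomal membrane protein gene of blood cells, had 160 and 127 anterior counts against 200 and 200 central counts and was not called (log2 fold change -0.47, adjusted p by edgeR 0.168). The gene called higher was Ncf4, which entered the test through its anterior counts alone. It encodes a subunit of the phagocyte oxidase and had 52 and 84 counts against 8 and 8 (log2 fold change 3.10 ± 0.55 SE, adjusted p by edgeR 0.00448). The summed level of the list was 68.7 and 73.6 CPM in the anterior and 71.1 and 62.8 CPM in the central libraries.

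Among 11 myeloid transcription factors, all tested, 3 were called higher, among them Maf and Runx1, and 1 lower (Fli1), with a median log2 fold change of 0.22. Without central replicate 2, 2 were called lower. Maf, which helps to hold macrophages in their mature state and is also expressed outside blood, rose by 1.72 on the log2 scale (adjusted p by edgeR 0.00046). Runx1, a regulator of blood formation, had 376 and 254 counts against 173 and 104 (log2 fold change 1.18, adjusted p by edgeR 0.0191), and its call was lost without anterior replicate 1 (0.0625). Fli1, an ETS factor of blood and endothelium, had a log2 fold change of -1.24 (adjusted p by edgeR 1.96e-05).

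Genes that act with Tyrobp and Fcer1g held calls in both directions. Of 17 immunoreceptor signalling genes, 14 were tested, 1 was called higher (Cd47) and 2 lower (Syk, Sirpa), with a median log2 fold change of -0.38. Over all tested genes, 10.7% were called higher and 12.3% lower, so the calls in this list were near the general share. The count of lower calls was 1 without either anterior library or without central replicate 2, and the count of higher calls was 2 without central replicate 1. Syk, the kinase recruited by both adaptors, had 106 and 99 counts against 163 and 232 (log2 fold change -0.93, adjusted p by edgeR 0.0337). Sirpa, an inhibitory receptor of myeloid cells, and Cd47, its widely expressed ligand, had log2 fold changes of -0.72 and 0.68 (adjusted p by edgeR 0.00662 and 0.00805). Hcst, which encodes a further adaptor and lies on the other strand, 126 bases beyond the end of Tyrobp, had 0 to 4 counts in any library. It was not tested.

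Of 11 complement genes, 8 were tested, 4 were called higher, among them C1qc, C5ar1 and C1qbp, and 1 lower (Serping1), with a median log2 fold change of 1.25. Without anterior replicate 1, 2 were called higher. C5ar1, a receptor for a complement fragment, had 26 and 20 counts against 2 and 2, at least 7.69-fold higher in anterior cells (adjusted p by edgeR 0.0133). Serping1, the inhibitor of the C1 proteases, had 70 and 62 counts against 190 and 181 (log2 fold change -1.48, adjusted p by edgeR 0.00459). Of 14 genes for the uptake of dying cells, 13 were tested, 6 were called higher and 3 lower, with a median log2 fold change of 0.34. Without anterior replicate 2, 3 were called higher, and without anterior replicate 1 or central replicate 2, 4 were. The largest changes were in the integrin gene Itgb3 (-3.28), the scavenger receptor genes Cd36 (2.66) and Stab1 (1.30), the actin regulator gene Elmo1 (0.95) and the bridging protein gene Pros1 (0.88). Of 10 chemokine-axis genes, 6 were tested, with 1 called higher (Cx3cl1) and 2 lower, namely the chemokine Cxcl12 (-4.08) and its receptor Cxcr4 (-4.40), and the median log2 fold change was -0.98.

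**Figure D4:**
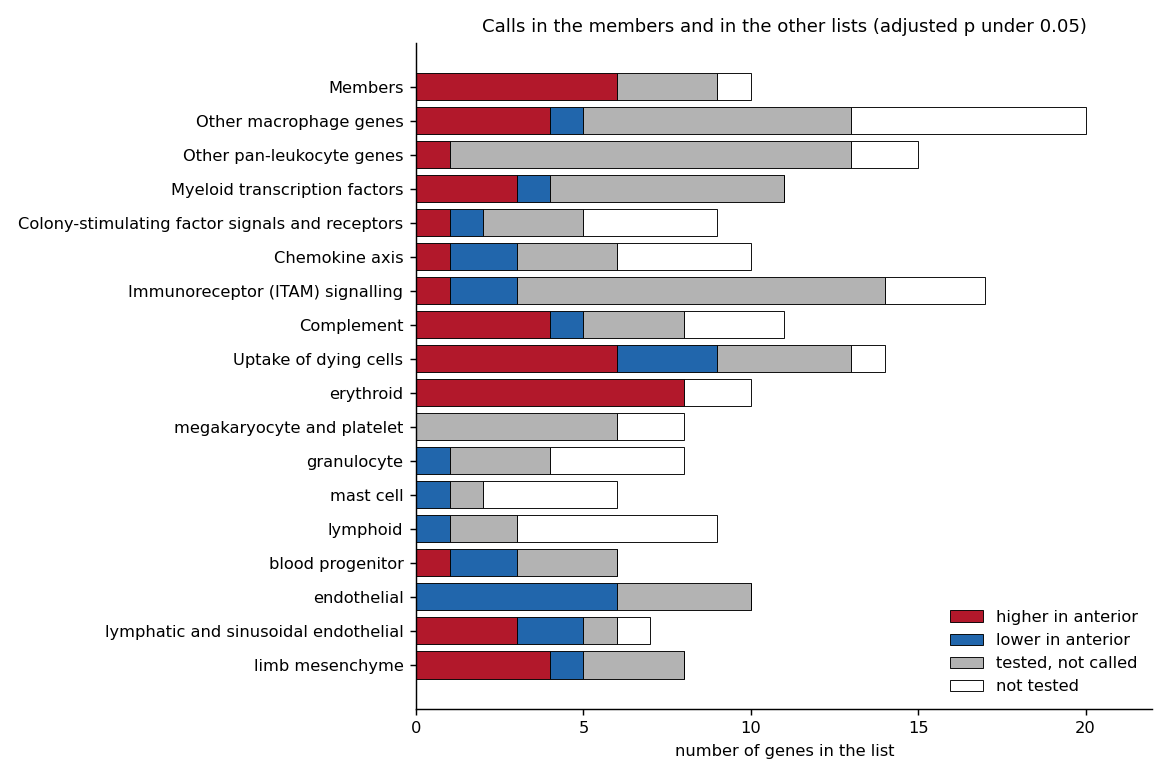
Number of genes (horizontal axis) called higher in anterior cells (red), called lower (blue), tested but not called (grey) and not tested (white) among the 10 markers (top row, "Members") and the other 17 lists. The markers hold 6 higher and 0 lower calls, the other pan-leukocyte genes 1 and 0, and the endothelial genes 0 and 6.

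Markers of other blood cells and of vessels moved between the same libraries. All 8 tested of 10 erythroid genes were called higher in anterior cells by edgeR and by the DESeq2 Wald test, and 6 by limma-voom. In 1 of the 8, a group had at most 3 counts in each library. Summed levels were 3293 and 8398 CPM in anterior and 5.97 and 9.48 CPM in central libraries. The defining globin, Hbb-y, was present in every library, and Hba-a1 and Hba-a2 were at 0. The erythroid sum was 2.55 times as high in anterior replicate 2 as in replicate 1, whereas the sum of the 10 macrophage and leukocyte markers was 0.949 times as high. With the erythroid genes left out before scaling, the same number of markers, 6, was called. Of 10 endothelial genes, all tested, 0 were called higher (0 at an unadjusted p under 0.05, and 0 by the DESeq2 Wald test and by limma-voom) and 6 lower, among them Cldn5, Kdr, Cdh5, Sox17 and Tie1, with summed levels of 13.5 to 20.1 CPM in anterior and 38.2 to 47.9 CPM in central libraries.

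In the granulocyte, lymphoid, mast cell and megakaryocyte lists 0 genes were called higher by edgeR, by the DESeq2 Wald test or by limma-voom, and 0 were higher at an unadjusted p under 0.05 by edgeR. Of 8 granulocyte genes, 4 were tested and 1 was called lower (Mpo, the myeloperoxidase gene, with 64 and 36 counts against 215 and 276). Summed granulocyte levels were 6.0 to 7.13 CPM in anterior and 13.3 to 14.1 CPM in central libraries. Of 9 lymphoid genes, 3 were tested and 1 was called lower (Rag1, a recombinase gene, 44 and 32 counts against 158 and 214), and Cd3e, Ncr1 and Klrb1c were at 0 in all libraries. Of 6 mast cell genes, 2 were tested and 1 was called lower (Cpa3, 0 and 0 counts against 12 and 22), and Fcer1a and Tpsb2 were at 0. Without central replicate 2, 0 mast cell genes were called lower, and without anterior replicate 1 or central replicate 1, 2 were. Of 8 megakaryocyte and platelet genes, 6 were tested and 0 were called in either direction by edgeR, DESeq2 or limma-voom, with 0 at an unadjusted p under 0.05 by edgeR. The lower calls in this list were 1 without anterior replicate 2 and 2 without central replicate 1. Of 6 blood progenitor genes, all tested, 1 was called higher (Gfi1b) and 2 lower (Cd34, Hlf). The higher call was lost without anterior replicate 2 or central replicate 2, and 1 lower call was left with the DESeq2 Wald test, with halved counts and without anterior replicate 2. Fcer1g is also used by mast cells and platelets, and the part of these cells in its value was not tested.

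**Figure D5:**
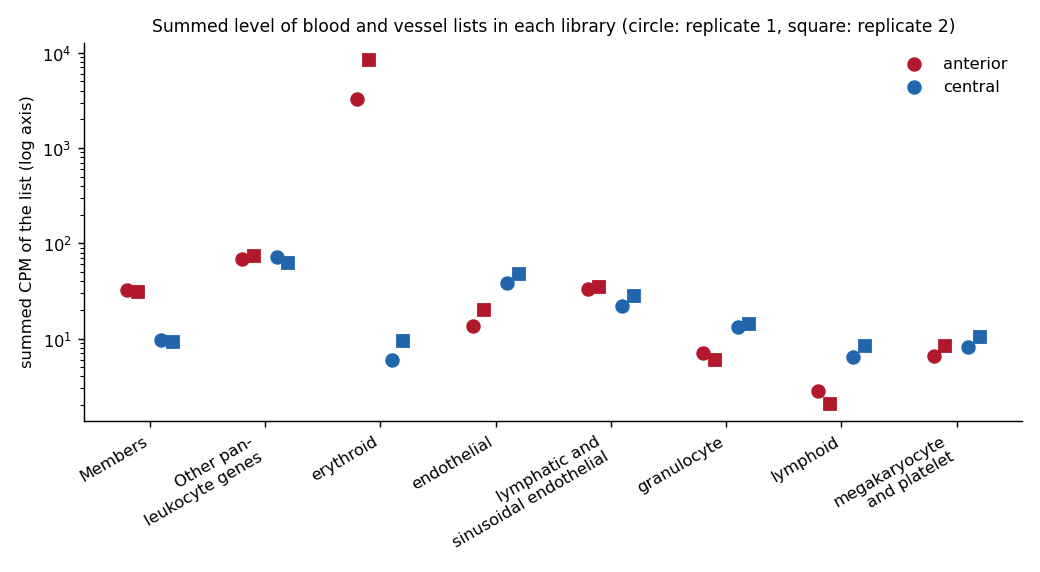
Summed CPM (vertical axis, log scale) of the 10 markers ("Members") and of 7 other lists in each library, anterior in red and central in blue, circles for replicate 1 and squares for replicate 2. The 10 markers sum to 32.5 and 30.8 CPM in anterior and 9.61 and 9.14 CPM in central libraries, and the erythroid list reaches 3293 and 8398 CPM in anterior libraries.

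By the shape of their values over the 4 libraries, the genes most like the summed markers were Sh3rf3, Tfap2b and Kctd6. Their mean-centred log2 CPM differed from that of the sum by a root mean square of 0.07 each, among 12821 genes with a mean of at least 1 CPM. For Csf1r alone they were Atf3, Wdr72 and Tfap2a, at 0.09, 0.09 and 0.13. With only 4 libraries such likeness says little, and 76 of the 12821 genes lay within 0.25 of the summed markers.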

How the data were processed

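RNA was sequenced from 2 anterior and 2 central libraries. The authors deposited whole-number counts per gene symbol, not normalized. Per the submitters' processing notes, STAR 2.7.9a, HTSeq and DESeq2 (listed version 3.16) were used with build mm10. Their settings, the annotation and the use of strand are not given in the sources used here. Groups and replicate numbers came from the sample titles, and columns were matched to titles by domain name and number.

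Testing used edgeR 4.0.16 (R 4.3.3): filterByExpr defaults (minimum count 10), TMM scaling, and the quasi-likelihood F test, two-sided, with Benjamini-Hochberg adjustment over all 14610 tested genes at 0.05. With 2 libraries a group, 2 residual degrees of freedom remained. A standard error is the absolute log2 fold change divided by the square root of F, and 95% intervals use the fit's total degrees of freedom. Folds against a group with at most 3 counts in each library are bounds against 3 counts per library. Intervals and floors cover counting error and replicate spread in these libraries only. Even numbers made up 72.8% to 75.6% of counts from 1 to 10, so both mates of a pair may have been counted, and halved counts were fitted as well. Levels per length use exon lengths of the GENCODE M21 basic set (GRCm38, the build of mm10), in which all 10 markers were found. The test was tried on simulated counts in 5 draws. At an adjusted p under 0.05 it recovered 70% of 2-fold and 86% of 4-fold changes, and 8.45% of its calls fell on unchanged genes. The changed genes were drawn at random from all tested genes, so these shares do not give the recovery for rare transcripts such as the markers. Replicates differed by more than sampling noise (chi-square per degree of freedom of 12.4 in anterior and 7.13 in central libraries, halved counts).

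Alternatives were DESeq2 1.42.0 size factors and Wald test, library size alone, upper-quartile factors, limma-voom (limma 3.58.1), no filter, halved counts, a minimum mean count of 50, the replicate block, removal of the erythroid list and leaving out each library. The markers, the lists and the alternatives were chosen with earlier results of these data known. Values are given for the 10 markers, for up to 5 called genes of largest change per list and for 11 further genes given whatever their result (Csf1, Il34, Cx3cl1, C1qc, Trem2, Hcst, Spi1, Lyz2, Cd68, Laptm5, Runx1). Other genes named (neighbours, markers at 0, Sall1, Prrx1, Pitx1, Prox1, Stab2) were picked as context. Some genes that the naming rule covers are not reported here, and list counts include them.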

Additional observations from a re-analysis of the deposited data

How the results depend on the processing

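All alternatives kept the direction of the 6 called markers. Their number stayed at 6 except that it was 5 with the DESeq2 Wald test (C1qa lost) and 3 with a mean count of at least 50, where only Csf1r, Cx3cr1 and Mrc1 were tested. Leaving out each library gave 4 to 6 called markers: Adgre1 and Cx3cr1 were lost without anterior replicate 1 and without central replicate 1. These fits leave a lone library in a group, which is assumed to vary like the others, and over all genes they called 2009 to 3697, against 3351 with every library. Leaving out each library, the log2 fold change of Ptprc, which was not called, ran from -0.23 to 0.015, with the sign turned without central replicate 1. Of 230 values of single genes under the alternatives, 223 kept direction and side of the threshold, 6 lost the call and 1 changed sign. The cause was not tested. With replicate number as a block, 6 markers and 3586 genes were called. Same-numbered libraries share only a number in the labels, and their deviations correlated at 0.046 across genes, which are not independent. Of 474 counts of calls per list, 434 stayed within 1.5 times and 40 did not. The intervals were widest for Aif1, C1qa and Adgre1, which had few or no central counts.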

Other observations

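Within the phagocyte oxidase, a complex that makes superoxide, the subunit genes described here differed in their calls. Whether their changes differed from each other was not tested, and they were set side by side after their values were seen. Ncf4 was called higher in anterior cells by edgeR's test, with 52 and 84 counts against 8 and 8. Ncf1 had 38 and 55 counts against 30 and 58, and Cybb had 38 and 22 against 18 and 16. None of Ncf1, Cybb and Cyba was called (edgeR adjusted p-values 0.889, 0.335 and 0.143).

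C3, the central complement protein gene, rested on 1 library: it had 71 counts in anterior replicate 1, 4 in anterior replicate 2 and 2 in each central library, and it did not pass the filter. In the fit without a filter its adjusted p by edgeR was 0.0055. Ikzf1, a regulator of lymphoid and myeloid development, was higher in replicate 2 than in replicate 1 of both populations, at 76 and 178 counts in anterior and 46 and 96 in central libraries, and it missed the threshold (adjusted p by edgeR 0.242).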
